A study of Mus musculus with 9 samples.

Results

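The cells described here are chondrocyte-lineage cells found among sorted mouse knee joint cells, 114 of the 4788 single-cell transcriptomes that passed quality filters (no fewer than 500 genes and 1000 UMIs, with mitochondrial genes taking up to 10% of the UMIs, where a UMI, or unique molecular identifier, marks 1 captured RNA molecule). They were chosen on measured values: a cell was counted if at least 3 of the 6 cartilage genes Cytl1, Snorc, Chad, Hapln1, Matn3 and Col9a2 had at least 1 UMI each, with no UMI of Ptprc (the pan-leukocyte gene for CD45) or Pecam1 (an endothelial gene). All mice carried Gdf5-Cre, a Tom (tdTomato) reporter and Pdgfrα-H2BGFP. Gdf5-Cre permanently labels descendants of the embryonic joint interzone with Tom, whereas H2BGFP reports the activity of the fibroblast gene Pdgfrα. The groups were 2 Tom+ and 1 Tom-GFP+ steady-state libraries from uninjured (naive) mice, and 4 Tom+ and 2 Tom-GFP+ libraries from mice whose right knee had received a full-thickness scratch of the trochlear groove cartilage 6 days earlier. By the labels the mice were 11 to 12 weeks old, and by the study's legends 11 weeks at steady state and 12 weeks after injury, so that state and this week of age cannot be told apart. Joints were digested with collagenase, so that cells buried in hard cartilage may have been released in part only, and a Tom-GFP+ cell entered the sort only through GFP. The Tom-GFP+ libraries came from mice matched to Tom+ ones, and which libraries share a mouse is not given in the sources used here.

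Chondrocytes build and maintain cartilage, secreting a network of type II, IX and XI collagens filled with aggrecan, under the control of the transcription factor Sox9. In articular cartilage the superficial cells secrete lubricin, the product of Prg4, which keeps joint surfaces slippery, whereas growth plate chondrocytes signal through Ihh and the receptor Pth1r, enlarge, express Col10a1 and give way to bone. Of the genes used for selection, Hapln1 encodes the link protein that fixes aggrecan to hyaluronan, Matn3 and Chad encode matrix proteins that bind collagen, Col9a2 encodes a type IX collagen chain, Snorc encodes a cartilage membrane proteoglycan and Cytl1 encodes a secreted protein of cartilage.

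The 4667 cells without Ptprc and Pecam1 UMIs fell steeply with the number of marker genes detected: 3775 had none, 678 had 1, 100 had 2, 33 had 3, 20 had 4, 38 had 5 and 23 had all 6. Just inside the threshold, 16 of the 33 cells with 3 markers had Col2a1 and 27 had Acan. Just outside it, 14 of the 100 cells with 2 markers had Col2a1 and 53 had Acan. Among the selected cells, Chad was detected in 112, Hapln1 in 106, Snorc in 90, Col9a2 in 82, Cytl1 in 76 and Matn3 in 41. In the other 4553 cells each of the 6 genes was detected in 0.549% to 8.28%. None of the 73 cells with Ptprc UMIs met 3 markers.

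Genes outside the rule supported the name. Col2a1 (type II collagen) was detected in 93 of the 114 cells, Acan (aggrecan) in 106 and Sox9 in 104, and 85 cells had all of these. In the other cells, which were deeper (median 12081 UMIs against 8389.5), Col2a1 was detected in 4.22%, Acan in 17.3% and Sox9 in 23.1%. Across the 9 libraries the log2 ratio of the summed level in chondrocyte-lineage cells to that in the other cells, with 10 CPM (UMIs scaled to a common total per library) added to each, was 9.16 ± 1.73 (SD, n = 9) for Col2a1, 6.47 ± 1.83 for Col9a3, 6.13 ± 1.19 for Col11a2, 5.53 ± 1.85 for Col9a1, 4.82 ± 1.19 for Acan and 3.81 ± 0.567 for Sox9. Each of these was higher in 9 of 9 libraries, as were Wif1 (a secreted Wnt antagonist, 6.38 ± 1.15), Scrg1 (5.21 ± 1.12), Clu (clusterin, 4.55 ± 1.48) and Trpv4 (a mechanically gated calcium channel, 3.10 ± 0.562). Genes lower in 9 of 9 libraries included fibroblast and complement genes, with ratios of -5.83 ± 1.77 for Clec3b, -4.54 ± 1.38 for Cxcl12, -4.51 ± 1.81 for Pi16 and -4.09 ± 1.68 for C3. No test was made of these ratios, because the cells were chosen by genes of the same program.

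Defining genes of other cell types were scarce. Summed over Thy1, Cd34, Pi16 and Dpp4, the sublining fibroblast markers reached 0 to 112 CPM per library in the chondrocyte-lineage cells, with Cd34 the most abundant, although 17 of the 114 cells had a UMI of Thy1 or Cd34. The immune markers reached at most 56.9 CPM, with Lyz2 the most abundant and Tyrobp at 0 (Ptprc was at 0 by the rule). Of the lining fibroblast (FLS) markers, Prg4 made up most of the sum in Tom+ libraries, and Clic5 was at 0 in 7 of 9 libraries, at 9.22 CPM in Tom+ steady-state library 2 and at 7.11 CPM in Tom+ injured library 3. Bone and tendon lists were exceptions. The tenocyte list summed to 1010 to 2885 CPM per library, against 269 to 1186 CPM in the other cells, led by Fmod (fibromodulin, mean 1663 CPM), which is also on the cartilage matrix list, and no other of its 6 genes had UMIs in every library. As for bone, 33 of the 114 cells had at least 3 of Ibsp, Bglap, Sp7, Alpl, Dmp1, Phex and Ifitm5, and this list summed to 2310 to 35639 CPM per library, led by Ibsp (bone sialoprotein). Dmp1, an osteocyte gene, was at 0 in 8 of 9 libraries, and Ibsp, Alpl and Sp7 also belong to the growth plate list used here. The cells with at least 3 FLS or tenocyte markers numbered 7 and 3. Their part in the results below was not tested.

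Depth limited what could be compared. The libraries held 2866464 to 15033902 UMIs, of which the chondrocyte-lineage cells contributed 26813 (3 cells of Tom+ steady-state library 1) to 274120 (22 cells of Tom+ injured library 4). The doublet caller Scrublet marked 52 cells, none of them among the 114. However, 11 of the 114 were among the highest 5% of Scrublet scores in their libraries. The 9 libraries shared 12 barcodes over all pairs, and no chondrocyte-lineage barcode was shared.

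The first question was whether injury or developmental origin went with more or fewer of these cells. At steady state, 3 of 327 Tom+ cells in library 1 (0.917%, exact 95% interval 0.190 to 2.66), 19 of 540 in library 2 (3.52%, 2.13 to 5.44) and 11 of 405 Tom-GFP+ cells (2.72%, 1.36 to 4.81) belonged to the chondrocyte lineage. After injury the Tom+ libraries held 12 of 751 (1.60%), 4 of 814 (0.491%), 20 of 479 (4.18%) and 22 of 594 (3.70%), and the Tom-GFP+ libraries held 17 of 490 (3.47%) and 6 of 267 (2.25%). The intervals cover counting error only. The Tom+ injured libraries alone spanned the whole range, and all groups overlapped. In Tom+ cells the share was 2.49% ± 1.74 (SD, n = 4) after injury and 2.22% ± 1.84 (n = 2) at steady state (exact permutation test, 2-sided, p = 0.733, smallest p possible 0.0667). In Tom-GFP+ cells it was 2.86% ± 0.864 (n = 2) after injury and 2.72% in the single steady-state library (exact permutation test, p = 1, smallest p possible 0.333). After injury Tom+ and Tom-GFP+ libraries differed by -0.366 percentage points (exact permutation test, p = 0.867, smallest p possible 0.0667). The 3 p-values were each 1 after Benjamini-Hochberg adjustment.

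**Figure D1:**
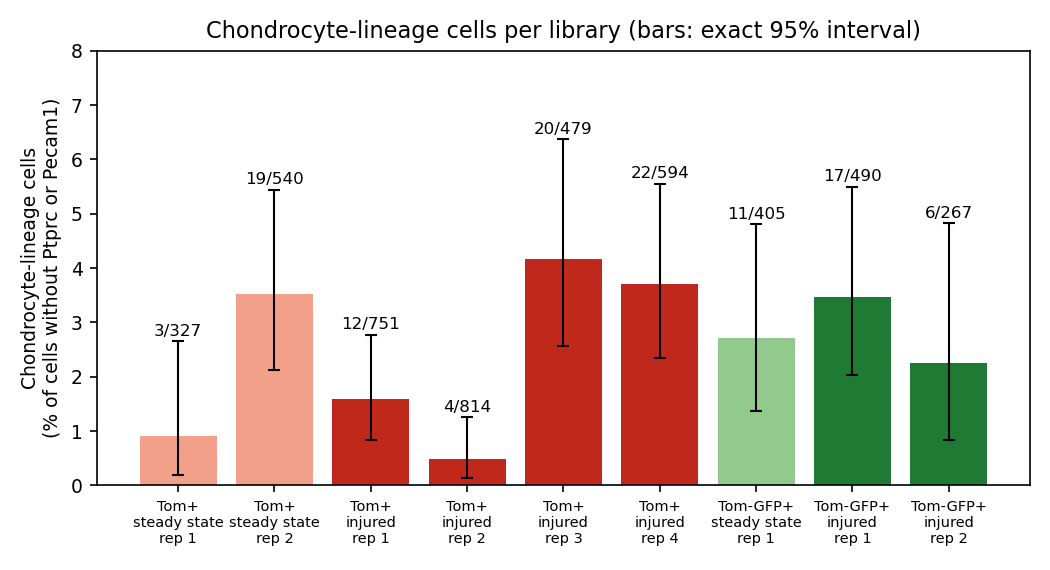
Percentage of cells without Ptprc or Pecam1 UMIs that were chondrocyte-lineage cells in each of the 9 libraries, coloured by group, with exact 95% binomial intervals as bars. The shares ran from 0.491% to 4.18% and every group overlapped every other.

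The sort, which combines origin with a GFP gate, went with what the cells expressed. H2BeGFP UMIs were found in 5 of 22 Tom+ and 10 of 11 Tom-GFP+ chondrocyte-lineage cells at steady state. After injury they were found in 13 of 58 Tom+ and 21 of 23 Tom-GFP+ cells. Differences between the sorts therefore cannot be put down to origin alone. After injury, Prg4 and Cilp were far higher in Tom+ than in Tom-GFP+ chondrocyte-lineage cells, and in neither case did the libraries overlap. Prg4 (ENSMUSG00000006014, chromosome 1, 150449412 to 150466165, minus strand) encodes lubricin. Cilp (ENSMUSG00000042254, chromosome 9, 65265180 to 65280605, plus strand) encodes cartilage intermediate layer protein. Both are protein-coding genes in GRCm38.

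Prg4 stood at 9288, 10438, 19066 and 8095 CPM in the 4 Tom+ injured libraries and at 38.5 and 92.8 CPM in the 2 Tom-GFP+ injured libraries. At steady state it stood at 13874 and 6316 CPM in Tom+ cells and at 131 CPM in Tom-GFP+ cells, the latter coming from 15 UMIs of a single cell. The Tom+ libraries were high and the Tom-GFP+ libraries low in both states, with no overlap. In the other cells of the same libraries Prg4 was present in both sorts, at 7426 to 18262 CPM in Tom+ injured and at 3108 and 8519 CPM in Tom-GFP+ injured libraries. Cilp stood at 1246, 662, 2126 and 1485 CPM in Tom+ injured and at 7.70 and 53.1 CPM in Tom-GFP+ injured libraries. At steady state Cilp stood at 3207 and 1314 CPM in Tom+ cells and had no UMI in Tom-GFP+ cells. Again the sorts did not overlap.

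The comparison of genes used the 7 libraries with at least 5 chondrocyte-lineage cells, which left out Tom+ steady-state library 1 (3 cells) and Tom+ injured library 2 (4 cells), so that the Tom+ steady state was then a single library. By the quasi-likelihood test of edgeR (Benjamini-Hochberg adjusted), 5 of 3022 genes (0.165%) differed between injured Tom+ and Tom-GFP+ cells. Prg4 was higher in Tom+ by 7.58 on the log2 scale (SE 0.73, adjusted p = 0.0118, edgeR) and Cilp by 5.91 (SE 0.72, adjusted p = 0.0328, edgeR). The other 3 were the marker gene Cytl1, higher in Tom+ by 4.20 (SE 0.37) and used to choose the cells, and the reporters used for the sort, tdTom (higher by 6.66) and H2BeGFP (lower by 4.40, log2 fold change -4.40). At an unadjusted p under 0.05 there were 267 genes, and DESeq2 called 25.

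The Prg4 difference was called in 14 of 19 settings and that of Cilp in 12 of 19. Both depended on the libraries: leaving out Tom+ injured library 3 left 0 genes called, and leaving out Tom+ injured library 4 ended the call of Cilp. Leaving out either Tom-GFP+ injured library ended both calls, with a single Tom-GFP+ injured library left in the fit. Requiring at least 4 of 6 marker genes also ended both calls. Tom-GFP+ injured library 2 then held 3 chondrocyte-lineage cells and left the fit. The definition of the cells and the loss of that library therefore cannot be told apart. Prg4 was still higher in Tom+ by 6.58 to 8.32 over all alternative settings.

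Free RNA released from other cells can place Prg4 UMIs in cells that do not express it. In injured Tom+ libraries 31 of 56 cells with Ptprc UMIs, which are immune cells, had at least 1 Prg4 UMI (median depth 9616 UMIs), as did 52 of 58 chondrocyte-lineage cells (median 8385.5). Thinned to 2000 UMIs a cell, the counts were 8 of 53 and 37 of 58. In the injured Tom-GFP+ libraries 7 of 23 chondrocyte-lineage cells had a Prg4 UMI and none had more than 3. Thinned, these were 2 of 23, against 3 of 10 immune cells, so that the Prg4 UMIs of injured Tom-GFP+ chondrocyte-lineage cells were not above those of the few immune cells. The single Tom-GFP+ steady-state cell with 15 Prg4 UMIs could not be set against a background, since that library held 1 immune cell, without Prg4.

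The genes next in order of p did not pass the threshold (edgeR, adjusted p = 0.131 each for Serpina1b, Meltf, Matn4 and Slpi). Over the 19 settings Mmp13 and Slpi passed in 7 each, Meltf in 6, Matn4 in 4 and Serpina1b in 3. Notum and Serpina3n, chosen after their values were seen, passed in 6 each. Serpina1b, a member of a multigene protease inhibitor family whose reads may be shared among copies, stood at 427, 0, 199 and 379 CPM in Tom+ injured and at 23.1 and 0 CPM in Tom-GFP+ injured libraries. Meltf (melanotransferrin) stood at 418, 294, 427 and 259 CPM in Tom+ injured against 53.9 and 13.3 CPM in Tom-GFP+ injured libraries, a log2 fold change of 3.28 (SE 0.55), with no overlap in either state. Matn4, a matrilin of the pericellular matrix, ran the other way, at 71.2, 29.4, 42.7 and 94.8 CPM in Tom+ injured and 385 and 332 CPM in Tom-GFP+ injured libraries, a log2 fold change of -2.30 (SE 0.39). At steady state Matn4 was at 0 and 46.1 CPM in Tom+ and at 332 CPM in Tom-GFP+ cells. Mmp13, the collagenase of hypertrophic cartilage and bone, stood at 0, 14.7, 0 and 43.8 CPM in Tom+ injured and 3342 and 252 CPM in Tom-GFP+ injured libraries, a log2 fold change of -6.41 (SE 1.27, adjusted p = 0.160, edgeR). Slpi, a secreted leukocyte protease inhibitor chosen here after its values were seen, stood at 0, 29.4, 107 and 29.2 CPM in Tom+ injured and 809 and 1605 CPM in Tom-GFP+ injured libraries. Of these 5 genes, Meltf, Matn4, Mmp13 and Slpi did not overlap between the injured sorts, and Serpina1b was at 0 in a library of each. The share of all tested genes without overlap was not counted. For genes named partly by small p or after their values were seen, the lack of overlap is a description only.

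**Figure D2:**
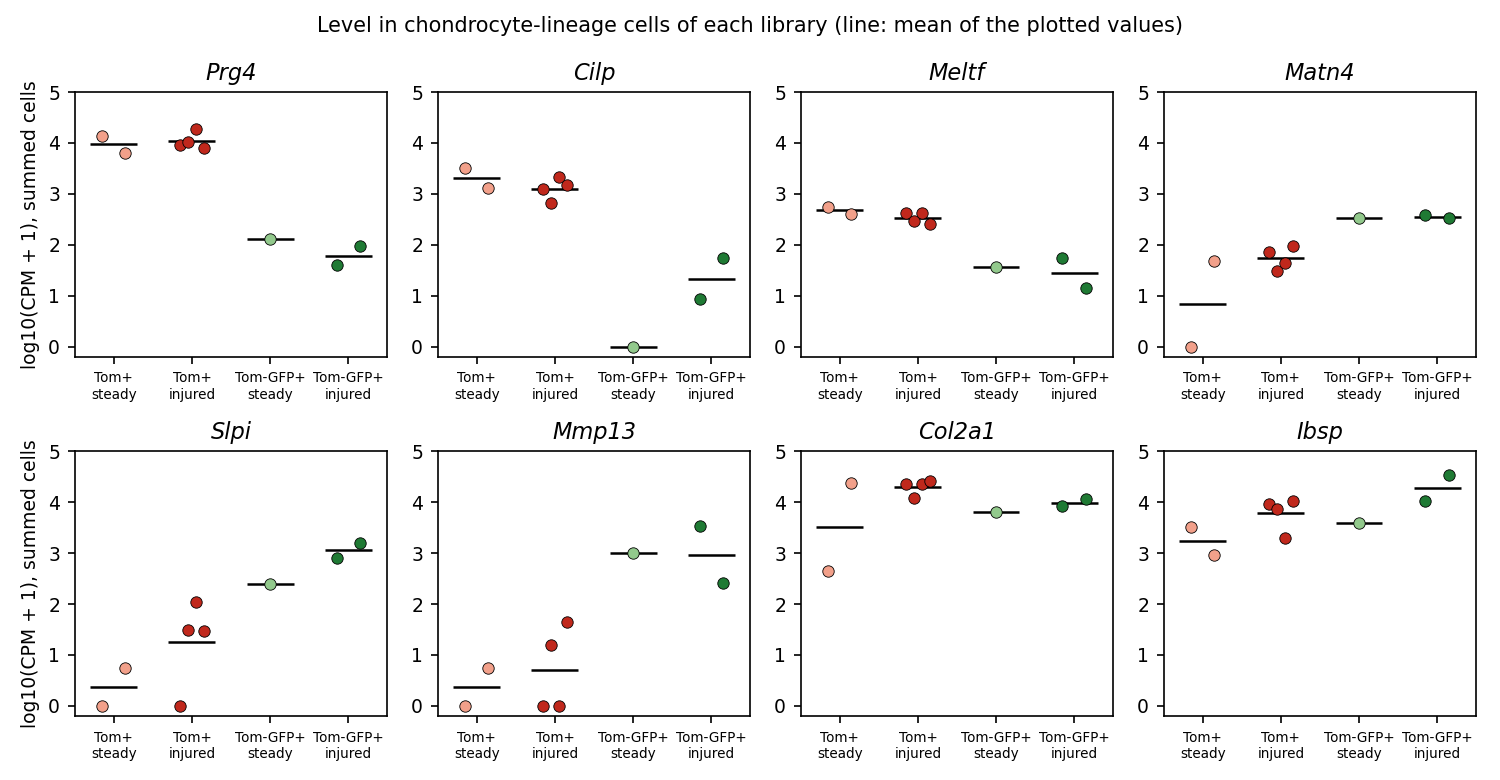
Level of 8 genes in the summed chondrocyte-lineage cells of each of the 9 libraries, as log10(CPM + 1), 1 point per library in 4 groups; the line is the mean of the plotted values. Prg4, Cilp and Meltf sit higher in Tom+ than in Tom-GFP+ libraries and Matn4 and Slpi lower, while Col2a1 and Ibsp overlap over the 2 states together.

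Core cartilage genes did not pass the edgeR test between the sorts. By DESeq2, however, Col2a1 was called (log2 fold change 1.25, SE 0.37, adjusted p = 0.0321). Col2a1 stood at 22784, 11836, 22622 and 26631 CPM in Tom+ injured, 8456 and 11460 CPM in Tom-GFP+ injured, 448 and 23476 CPM in Tom+ steady-state and 6306 CPM in Tom-GFP+ steady-state cells. The Tom+ injured libraries were all above the Tom-GFP+ injured ones, by 1.27 on the log2 scale (SE 0.34, adjusted p = 0.422, edgeR), and the low value of 448 CPM came from the 3 cells of Tom+ steady-state library 1. Acan stood at 1441, 1134, 1728 and 2634 CPM in Tom+ injured and 624 and 1857 CPM in Tom-GFP+ injured cells (log2 fold change 0.63, SE 0.54, adjusted p = 0.809, edgeR). Sox9 stood at 1165, 707, 860 and 810 CPM against 578 and 424 CPM (0.92, SE 0.35, adjusted p = 0.559, edgeR). Comp, which encodes a cartilage matrix protein also made by tendon, varied little, at 4261 to 6784 CPM over the 9 libraries. All 6 cartilage collagens tested (Col2a1, Col9a1, Col9a3, Col11a1, Col11a2 and Col27a1) had positive fold changes and none passed the test, with a median log2 fold change of 1.17 beside 0.0032 over all 3022 genes.

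Among the superficial zone genes, 9 of 11 could be tested, and Prg4 and Cilp passed, both higher in Tom+ (2 of 9, beside 0.165% of all genes). The median log2 fold change of these 9 was 2.80. Abi3bp, a matrix-binding protein gene (log2 fold change 3.43, adjusted p = 0.278, edgeR), and Creb5, a transcription factor of superficial articular chondrocytes (4.17, adjusted p = 0.473, edgeR), did not pass. Creb5 stood at 142, 44.2, 149 and 36.5 CPM in Tom+ injured and at 0 and 13.3 CPM in Tom-GFP+ injured libraries. Of 14 growth plate and hypertrophic genes tested none passed (8 positive, 6 negative, median 0.12). Ibsp stood at 9110, 7493, 2005 and 10656 CPM in Tom+ injured and 10334 and 34153 CPM in Tom-GFP+ injured cells (-1.63, SE 0.74, adjusted p = 0.596, edgeR). Col10a1 stood at 2722, 0, 3641 and 299 CPM against 0 and 1671 CPM, and Ihh at 0, 0, 228 and 241 CPM against 0 and 159 CPM, so that each was at 0 in a library of both sorts. Of the Wnt antagonists and targets, 6 were tested and none passed (2 positive, 4 negative, median -0.80), Wif1 being nearest (-1.17, SE 0.43, adjusted p = 0.551, edgeR). The cartilage transcription factors gave 9 positive and no negative fold changes (median 0.92) with none past the test. The BMP and GDF list gave 7 positive of 7 tested (median 0.67), Bmp2 being nearest (2.64, SE 0.70, adjusted p = 0.405, edgeR).

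At steady state Tom+ and Tom-GFP+ cells were 1 library each in the fit, and 0 of 3022 genes (0%) differed by the quasi-likelihood test of edgeR (Benjamini-Hochberg adjusted). There were 193 genes at an unadjusted p under 0.05 and DESeq2 called 12. Genes with the smallest p included Cilp, Prg4 (log2 fold change 5.57, SE 0.94, adjusted p = 0.389, edgeR), Lbp (-2.97) and Dio2 (the enzyme that activates thyroid hormone). Cilp had no UMI in the Tom-GFP+ steady-state cells and Dio2 none in the Tom+ steady-state cells, so that no fold is given for them; Dio2 stood at 262 CPM in the Tom-GFP+ steady-state library. The spread in this comparison came from the injured libraries.

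Per cell, the Tom+ chondrocyte-lineage cells spread from no Prg4 to 675 UMIs, with a median of 9 UMIs at steady state and 29 after injury. A division at 10 Prg4 UMIs, made after the values were seen and used for description only, gave 47 Tom+ cells at or above it (median 6591 UMIs in all) and 33 below (median 14170 UMIs). Near this value, 5 Tom+ cells had 5 to 9 Prg4 UMIs and 6 had 10 to 19. Of 34 Tom-GFP+ cells (median 8463 UMIs), 1 reached 10 Prg4 UMIs. The 5 Tom+ libraries with both kinds of cell are compared below, and no test was made, since the division uses the same cells.

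**Figure D3:**
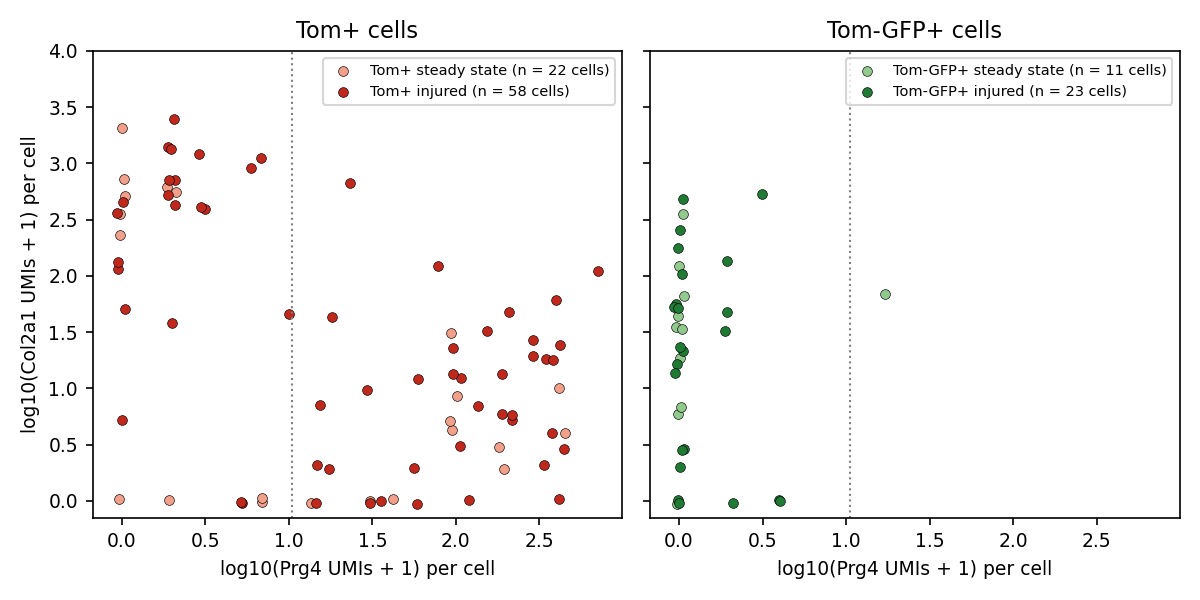
Prg4 against Col2a1 in each chondrocyte-lineage cell, as log10(UMIs + 1), with Tom+ cells in one panel and Tom-GFP+ cells in the other, coloured by state; the dotted line marks 10 Prg4 UMIs and points are shifted slightly sideways so that equal values show. Of the Tom+ cells 47 of 80 lie at or beyond the line, against 1 of 34 Tom-GFP+ cells.

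Tom+ cells with Prg4 also carried other superficial zone genes. Cilp was detected in 40 of the 47 cells with 10 or more Prg4 UMIs, 7 of the 33 with fewer and 2 of the 34 Tom-GFP+ cells. Creb5 was detected in 35, 5 and 3 of these cells, and Erg, a transcription factor of developing articular cartilage, in 15, 4 and 0, where 0 of 34 allows a share of cells with a UMI of up to 8.82% and sets no limit on cells that express it. The shallower cells thus had the more frequent detection. Thinned to 2000 UMIs, Creb5 remained in 17, 0 and 1 cells and Cilp in 40, 6 and 0. The thinning used above for Prg4 gave Cilp in 14 of 22 steady-state and 28 of 58 injured Tom+ cells, which is fewer in all. Thinned counts thus differed between thinnings. Bmp2, a growth factor that drives chondrocyte differentiation, was detected in 31, 7 and 9 cells, and Clu in 44, 11 and 30. Cilp, Creb5, Clu and Clec3a were each higher in the Prg4-rich cells in 5 of 5 libraries.

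Tom+ cells with little Prg4 had the higher pooled Col2a1 level and the more frequent detection of several growth plate genes, and were also the deeper cells. The pooled Col2a1 level was 37308 CPM in the 33 cells with fewer than 10 Prg4 UMIs, 3668 CPM in the 47 with more and 8395 CPM in the 34 Tom-GFP+ cells, and the 33 were higher than the 47 in 4 of 5 libraries. Cnmd (chondromodulin, an inhibitor of vessel growth in cartilage) was detected in 21, 6 and 30 cells, in the order low-Prg4 Tom+, Prg4-rich Tom+ and Tom-GFP+. In the same order Pth1r was detected in 28, 7 and 22 cells, Panx3 (a channel gene of prehypertrophic chondrocytes) in 18, 1 and 2, Runx2 (the master regulator of hypertrophy and bone) in 17, 1 and 9, and Ihh in 7, 0 and 1. Thinned to 2000 UMIs, Cnmd stood at 21, 4 and 24 cells, Pth1r at 23, 4 and 11 and Panx3 at 12, 1 and 2. In the other 4553 cells of the series Pth1r was detected in 21.8% and Panx3 in 0.395%. Col10a1 did not follow this order, with 5, 7 and 1 cells. Over all 114 cells, 57 had at least 2 of Ihh, Col10a1, Ibsp, Pth1r, Panx3 and Mef2c, and 36 of these also had a Prg4 UMI.

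Some further genes were detected in more of the Tom-GFP+ than of the Tom+ cells, given here as pooled counts with no test per set. Wif1 was detected in 33 of 34 Tom-GFP+ cells, 11 of 33 low-Prg4 and 36 of 47 Prg4-rich Tom+ cells. Lef1, a transcription factor of Wnt signalling, was detected in 17, 3 and 0 of these cells, Notum, a secreted enzyme that inactivates Wnt proteins, in 19, 4 and 3, and Spon1 in 18, 3 and 0. Matn4 was detected in 27, 19 and 7 and Slpi in 12, 3 and 4. Thinned to 2000 UMIs, Lef1 stood at 7, 1 and 0 cells and Notum at 12, 1 and 2. These genes were listed after their values were seen, apart from Wif1, Lef1 and Matn4, which belong to the gene lists.

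**Figure D4:**
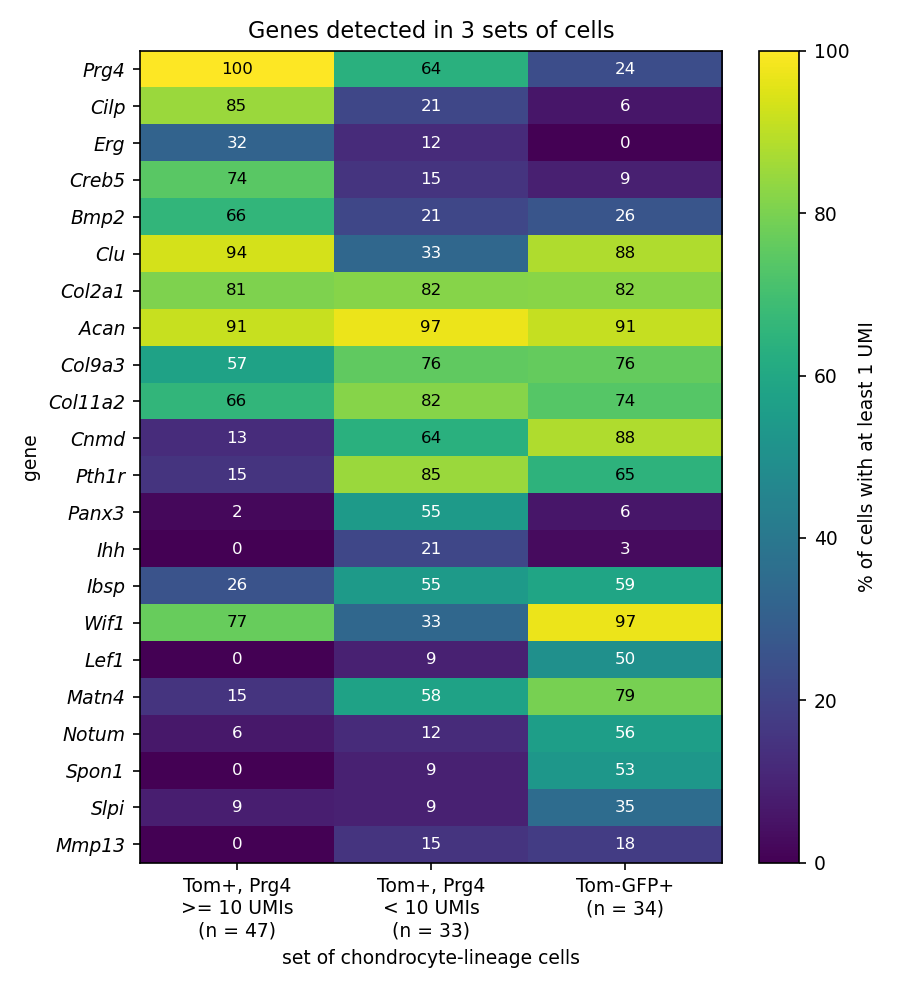
Percentage of cells with at least 1 UMI of 22 genes in 47 Tom+ cells with 10 or more Prg4 UMIs, 33 Tom+ cells with fewer and 34 Tom-GFP+ cells; the colour and the printed value give the same percentage. Cilp, Creb5 and Bmp2 peak in the first column, Pth1r and Panx3 in the second, and Lef1, Notum, Spon1 and Matn4 in the third.

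Promoters of 3 of these genes are shown because the genes appear in the results above: Cilp, higher in injured Tom+ cells, Cytl1, a gene of the selection rule whose values are a description only, and Col10a1, the marker of hypertrophic cells. Each is the 200 bases before the start of the gene, from RefSeq on GRCm38.p6, plus strand, for Cytl1 at chr5:37735319-37735518, for Cilp at chr9:65264980-65265179 and for Col10a1 at chr10:34389781-34389980, 5′ to 3′, with capitals marking a match to ACAATG or ACAAAG, short sequences of the kind bound by SOX proteins, searched on both strands.
Cytl1: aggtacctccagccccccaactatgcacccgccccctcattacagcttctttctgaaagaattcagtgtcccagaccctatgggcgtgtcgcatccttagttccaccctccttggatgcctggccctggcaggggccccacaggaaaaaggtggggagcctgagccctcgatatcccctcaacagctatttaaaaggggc
Cilp: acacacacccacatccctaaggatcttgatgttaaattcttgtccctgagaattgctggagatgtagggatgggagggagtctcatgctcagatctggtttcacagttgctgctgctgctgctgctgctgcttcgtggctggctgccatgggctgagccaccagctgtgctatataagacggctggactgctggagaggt
Col10a1: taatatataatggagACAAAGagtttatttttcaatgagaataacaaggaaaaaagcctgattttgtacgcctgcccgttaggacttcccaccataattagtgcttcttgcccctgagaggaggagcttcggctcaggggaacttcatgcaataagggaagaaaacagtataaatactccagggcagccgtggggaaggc
The Col10a1 window held 1 match and the other windows none. Of 32851 RefSeq promoter windows of this length, 8.58% held ACAATG, 13.3% held ACAAAG and 20.7% held either, so that a match is common and marks no site.

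The effect of injury within each origin was examined next. No gene passed the edgeR test. The matrix genes Timp1 and Spp1 lay higher in every injured than in every steady-state library. How many of all tested genes did so was not counted, and Tom+ steady-state library 1 held 3 chondrocyte-lineage cells. This order is therefore a description only. In Tom+ cells 0 of 3022 genes (0%) differed between injured and steady-state libraries by the quasi-likelihood test of edgeR (Benjamini-Hochberg adjusted), with 212 genes at an unadjusted p under 0.05 and 1 called by DESeq2. In Tom-GFP+ cells 0 of 3022 (0%) differed by the same test, with 272 at an unadjusted p under 0.05 and 10 called by DESeq2. The steady state was 1 library in either fit, so that the spread came from the injured libraries, also for the DESeq2 calls.

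Timp1, an inhibitor of matrix metalloproteinases, stood at 224 and 203 CPM in Tom+ steady-state and at 1735, 1428, 2610 and 810 CPM in Tom+ injured libraries, a log2 fold change of 3.01 (SE 0.80, adjusted p = 0.402, edgeR). In Tom-GFP+ cells Timp1 stood at 131 CPM at steady state and at 716 and 1207 CPM after injury (2.80, SE 0.85, adjusted p = 0.443, edgeR). All 6 injured libraries were above all 3 steady-state libraries for Timp1. The other cells showed the same order, with Timp1 at 193 to 541 CPM at steady state and 1154 to 3838 CPM after injury. Spp1 (osteopontin) stood at 0, 853 and 192 CPM in the steady-state libraries, Tom+ then Tom-GFP+, and at 1529 to 10003 CPM in the 6 injured libraries, again with no overlap. DESeq2 called Spp1 in the Tom-GFP+ comparison (log2 fold change 4.90, SE 1.00, adjusted p = 0.00183), whereas edgeR gave adjusted p = 0.285 there and 0.610 in Tom+ cells. Igfbp5, which binds insulin-like growth factors, stood at 2872 and 1369 CPM in Tom+ steady-state and 285, 58.9, 35.6 and 139 CPM in Tom+ injured libraries (-3.24, SE 0.83, adjusted p = 0.401, edgeR).

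Collagens of scar and bone did not pass the edgeR test. Col1a1 stood at 1939 and 876 CPM in Tom+ steady-state cells and at 19715, 23805, 1429 and 6410 CPM in Tom+ injured cells, which overlapped. Col3a1 stood at 970 and 152 CPM in Tom+ steady-state and at 1779, 10188, 2581 and 941 CPM in Tom+ injured cells, which overlapped through the 3 cells of Tom+ steady-state library 1, left out of the fit (log2 fold change 3.46, SE 0.78, adjusted p = 0.301, edgeR), and was the gene called by DESeq2 (3.49, adjusted p = 0.0190). Among the 9 fibrillar collagens tested, 7 had positive fold changes in each origin, with medians of 1.43 in Tom+ and 1.62 in Tom-GFP+ cells, beside 0.040 and 0.020 over all genes. The matrix remodelling list gave 10 of 13 positive in Tom+ (median 1.16) and 9 of 13 in Tom-GFP+ cells (median 0.69). The growth plate list gave 10 of 14 positive in Tom+ (median 0.76) and 12 of 14 in Tom-GFP+ cells (median 1.33). Of the 7 genes always given, Col2a1, Acan, Sox9, Prg4, Ihh and Ibsp had adjusted p-values of 0.844 to 0.998 or, for Ibsp, 0.636 in Tom+ cells (edgeR), and Col10a1, at 0 in all 3 steady-state libraries, had 0.614. In Tom-GFP+ cells the adjusted p-values of the 7 genes were 0.579 to 0.920 (edgeR). The cartilage collagens gave 6 negative fold changes of 6 in Tom+ (median -0.47) and 3 of 6 in Tom-GFP+ cells (median -0.02). Of 12 cell cycle genes only Pcna was high enough to test, and Mki67 was detected in Tom+ injured libraries 2 and 4 only, at 44.2 and 14.6 CPM. The 2 injury comparisons rest on different libraries, and the test of their difference called 0 of 3022 genes (0%; edgeR, 101 at an unadjusted p under 0.05, DESeq2 0).

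The share of UMIs from pseudogenes moved with the state. The 5 smallest p in Tom+ cells belonged to the processed pseudogenes Gm9493, Rpl17-ps10, Gm15427, Gm13456 and Rpl36a-ps2 (adjusted p = 0.171 each, edgeR), all lower after injury, and in Tom-GFP+ cells to Gm15427, Rpl17-ps10, Gm13456, Gm6863 and Oaz1-ps (adjusted p = 0.167 each, edgeR). Pseudogenes took 2.24%, 1.96% and 3.07% of the UMIs of chondrocyte-lineage cells in the 3 steady-state libraries and 0.445% to 0.754% in the 6 injured ones, with 2.07% to 3.31% and 0.520% to 1.05% in the other cells. Of the 212 genes at an unadjusted p under 0.05 in Tom+ cells 45 were pseudogenes, 44 of them lower, among 76 pseudogenes tested. Reads of a pseudogene and its parent gene cannot be told apart with certainty. All 3 steady-state libraries and Tom+ injured library 1 were deposited in the older gene list format and the other 5 in a newer one, and Tom+ injured library 1 held 0.754%, the highest injured value. With the gene list format as a block, edgeR called 0 genes in either injury comparison (smallest adjusted p = 0.119 in Tom+ and 0.178 in Tom-GFP+ cells, with 197 and 207 genes at an unadjusted p under 0.05). The part of the pseudogene share was not tested.

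The last comparison asked whether injury moved genes by a different amount in Tom+ chondrocyte-lineage cells than in the other Tom+ cells without Ptprc and Pecam1, both summed per library in the 6 Tom+ libraries with the library as a block. By the quasi-likelihood test of edgeR (Benjamini-Hochberg adjusted), 86 of 11404 genes (0.754%) differed, 69 with a positive difference and 17 with a negative one. A positive difference is a larger rise or a smaller fall in the chondrocyte-lineage cells than in the other cells. Without the genes of the rule 83 remained. With 10 CPM added to each mean, 33 of these had fallen in the other cells by more than 1 on the log2 scale. By the same measure 5 had risen there by more than 1. The added 10 CPM leaves out changes in genes at a few CPM. In 47 of the 83, the chondrocyte-lineage cells had no UMI in at least 1 library.

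The smallest adjusted p belonged to Msmp, a gene for a small secreted protein, at 37.3 and 922 CPM at steady state and 1673, 44.2, 654 and 2597 CPM after injury in chondrocyte-lineage cells, which overlapped. In the other Tom+ cells Msmp stood at 650 and 12803 CPM at steady state and at 0.554 to 43.5 CPM after injury, a difference of 10.33 (SE 0.81, adjusted p = 6.91e-33, edgeR). Growth plate and bone genes were among the others called. Of 15 growth plate genes tested, 6 passed (beside 0.754% of all genes), all with positive differences (median 2.36 over the 15, beside 0.070 over all genes), and of 7 bone markers Alpl and Ibsp passed, both positive. None of these was called when genes had to pass the low-count filter in the chondrocyte-lineage cells alone. Alpl, the phosphatase of mineralizing cells, stood at 373 and 355 CPM at steady state and at 925, 339, 860 and 609 CPM after injury in chondrocyte-lineage cells, which overlapped. In the other Tom+ cells Alpl stood at 91.6 and 162 CPM at steady state and at 16.6, 32.7, 4.16 and 7.50 CPM after injury, so that the difference of 4.51 (SE 0.60, adjusted p = 1.6e-10, edgeR) came with a fall in the other cells. Ibsp gave a difference of 4.05 (SE 0.69, adjusted p = 3.56e-06, edgeR), with 3207 and 917 CPM at steady state and 9110, 7493, 2005 and 10656 CPM after injury in chondrocyte-lineage cells. Cells with at least 3 bone markers numbered 24 of 324 and 53 of 521 among the other Tom+ cells at steady state and 15 of 739, 30 of 810, 3 of 459 and 4 of 572 after injury. Their part in these differences was not tested.

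The chondrocyte-lineage levels of 24 of the 83 did not overlap between the states. The share of all tested genes without overlap was not counted, so that this number is a description only. Among the 24, Serpinf1 (an inhibitor of vessel growth) stood at 37.3 and 73.8 CPM at steady state and at 294, 2105, 242 and 201 CPM after injury. Its difference from the other cells was 3.88 (SE 0.73, adjusted p = 7.09e-05, edgeR). The 37.3 CPM rests on very few UMIs, since Tom+ steady-state library 1 held 3 such cells with 26813 UMIs. Dcn (decorin, a small proteoglycan that binds collagen fibrils) stood at 2648 and 3508 CPM at steady state and at 11788, 7582, 5803 and 9521 CPM after injury, while the other cells held 13955 and 16869 CPM at steady state and 4093 to 7536 CPM after injury (3.02, SE 0.67, adjusted p = 0.00223, edgeR). The stress chaperone genes Hspa1a (3.35) and Hspa1b (2.46), Idi1 of cholesterol synthesis (3.84), Ramp1 (no steady-state UMI, so no fold is given), Enpp2 (3.20), the cell cycle inhibitor Cdkn1c (2.77), Lbp (2.58) and C4b (3.78) completed the 10 smallest adjusted p with positive differences. Negative differences with no overlap were found for Rpl39l (-4.72), Hspb6 (-3.10), Slc16a4 (-4.76), 2810001G20Rik (-3.19), Igfbp5 (-2.44, adjusted p = 0.0155, edgeR) and Tmem98 (-2.38). With genes required to pass the low-count filter in the chondrocyte-lineage cells alone, 2 of 2085 genes were called, Msmp and Cd24a. Dcn, Serpinf1, Hspa1a, Hspa1b, Idi1, Ramp1, Enpp2, Cdkn1c, Lbp, Igfbp5 and Tmem98 passed that filter and lost the call (adjusted p = 0.0933 to 0.675, edgeR), Dcn with 0.161. Among all alternatives that ended a call, the difference was 2.70 to 3.04 for Dcn, 3.17 to 4.09 for Serpinf1 and 3.12 to 3.42 for Hspa1a. It was 1.58 to 2.79 for Lbp and -2.52 to -1.52 for Igfbp5. Over the alternative settings Tmem98 lost its call in 11 of 14, Igfbp5 in 8 of 14, Lbp in 7 of 14 and C4b in 8 of 13. Cd24a stood at 37.3 and 157 CPM at steady state and at 205, 88.3, 235 and 317 CPM after injury in chondrocyte-lineage cells, and at 17.8 and 55.3 CPM and then 4.40 to 7.78 CPM in the other cells.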

How the data were processed

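Knee joint cells of Gdf5-Cre;Tom;Pdgfrα-H2BGFP mice were sorted as live Tom+ or Tom-GFP+ cells and captured with the 10x 5′ assay. Per the labels and matrix headers, the authors made the deposited UMI counts per gene and cell with Cell Ranger (software version 3.0.2 in the headers of 5 libraries) on GRCm38.p6, and the count tables were used as deposited, 1 table per library (9 libraries, 5161 barcodes, 2866464 to 15033902 UMIs each). Barcodes entered the analysis with 500 or more genes, 1000 or more UMIs and a mitochondrial share of up to 10%. Doublets were scored with Scrublet in scanpy 1.11.5 and not removed in the main analysis.

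The cells, gene lists and tests were chosen with earlier results of these data known. UMIs of the chondrocyte-lineage cells were summed per library, libraries with at least 5 such cells entered the fits, and genes passing filterByExpr (minimum count 10) were tested with edgeR 4.0.16 (R 4.3.3), using TMM scaling, glmQLFit and glmQLFTest over the 4 groups together, with Benjamini-Hochberg adjustment at 0.05. The injury effect in chondrocyte-lineage and other cells was compared in all 6 Tom+ libraries, with the library as a block. CPM values are UMIs of the summed cells scaled to a common total, without TMM. Shares were compared with exact permutation tests over libraries, 2-sided. Per the study's figure legends the groups held as many mice as libraries, so each library was taken as 1 mouse, although the labels do not tie libraries to mice.

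Genes were named by list, then the 10 smallest adjusted p in each direction among called genes whose libraries did not overlap, or the 5 smallest p where fewer than 5 passed; Col2a1, Acan, Sox9, Prg4, Ihh, Col10a1 and Ibsp were always given. A gene that this rule names is not reported here. Alternatives were DESeq2 1.42.0, RLE scaling, no filter on low counts, other thresholds for cells and libraries, removal of the highest 5% of Scrublet scores, the gene list format as a block, and leaving out each library. The edgeR and share scripts were tested on simulated data. Of 54532 Ensembl identifiers 54409 were found in GENCODE vM21. Promoter sequences came from RefSeq.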

Additional observations from a re-analysis of the deposited data

Results flagged for a closer look

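The response to injury differed between Tom+ chondrocyte-lineage cells and the other Tom+ cells for 86 genes by the quasi-likelihood test of edgeR (Benjamini-Hochberg adjusted). With genes required to pass the low-count filter in the chondrocyte-lineage cells alone, 2 were called. Other Tom+ cells with at least 3 bone markers numbered 24 of 324 and 53 of 521 at steady state and 15 of 739, 30 of 810, 3 of 459 and 4 of 572 after injury, and their part in the 86 was not tested. Among the 12 values examined for a library far from the others in the Tom+ injured group, 0 stood apart. With 4 libraries such a check can flag only an extreme value, so that it cannot show that the libraries were alike. Serpinf1, for example, stood at 294, 2105, 242 and 201 CPM in the chondrocyte-lineage cells of these 4 libraries. The highest value came from the 4 cells of Tom+ injured library 2.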

How the results depend on the processing

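The difference in share between Tom+ injured and steady-state libraries reversed to -0.538 percentage points with at least 2 of 6 markers, -0.00766 after thinning and -0.0730 with a stricter cell filter (1000 or more genes, mitochondrial share up to 5%), and ran from -1.03 to 1.57 when 1 library was left out. In Tom-GFP+ libraries it reversed to -0.232 with at least 4 of 6 markers and -0.243 after thinning (-0.469 to 0.753 without 1 library), and between injured sorts it ran from -0.977 to 0.301 without 1 library. The cause was not tested.

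Counts of called genes moved as follows. For injury in Tom+ cells DESeq2 called 1, no filter 109, at least 4 of 6 markers 2, removal of high Scrublet scores 2, all 9 libraries 9, and leaving out 1 library gave 0 to 28, the 28 (21 of them pseudogenes) without Tom+ injured library 1. For injury in Tom-GFP+ cells DESeq2 called 10 and no filter 100. For injured Tom+ against Tom-GFP+ cells DESeq2 called 25, no filter 131, libraries with at least 10 cells 0, at least 4 of 6 markers 8 (1 higher, 7 lower in Tom+), the stricter cell filter 13 (4 higher, 9 lower), removal of high Scrublet scores 14 (4 higher, 10 lower, beside 4 and 1 as reported), the mean over both states 10 (12 with all 9 libraries), and leaving out 1 library gave 0 to 10. At steady state DESeq2 called 12, no filter 77 and removal of high Scrublet scores 3. The test of the difference in injury effect called 14 with no filter. The comparison with other Tom+ cells called 18 by DESeq2, 2 with the filter on chondrocyte-lineage cells alone, 126 in libraries with at least 5 such cells and 55 to 106 without 1 library. No-filter calls include genes with almost no UMIs. With at least 4 of 6 markers, the stricter cell filter and removal of high Scrublet scores, Tom-GFP+ injured library 2 held 3, 4 and 4 cells. Under the rule of 5 cells it left the fits of origin and injury. In these settings cells and libraries changed together, so that a moved count cannot be put down to the cell filter alone.

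Some fold changes changed sign. In Tom+ injury, Col2a1 gave 0.045 with at least 4 of 6 markers, 0.83 without high Scrublet scores, 0.035 without Tom+ injured library 3 (-0.11 to 0.035 over the libraries left out) and 0.74 with all 9 libraries. Acan gave 0.095, 0.075 and 0.0090 without high Scrublet scores, Tom+ injured library 1 and library 3 (-0.38 to 0.075 over the libraries left out), and 0.57 with all 9 libraries. Cilp gave -0.13 with the format as a block and -0.57 with all 9 libraries. In Tom-GFP+ injury, Acan gave -0.24 with at least 10 cells or without Tom-GFP+ injured library 2 (1.45 without library 1). Acan gave -0.26 with at least 4 markers, -0.34 with the stricter filter and -0.10 without high Scrublet scores. Col2a1 gave -0.47 with the stricter filter, and Prg4 5.46 without high Scrublet scores. Tom-GFP+ injured library 2 left the fit in these settings too, so that these values cannot be put down to the cell filters alone. All Prg4 UMIs of the Tom-GFP+ steady-state cells, 15 in number, came from a single cell. The Prg4 value of 5.46 thus rests on few UMIs, and its size is not interpreted.

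Whether replicate numbers pair the libraries could not be settled. Correlations of same-numbered libraries' deviations from their group means were -0.086 to 0.14. In a group of 2 libraries these deviations mirror each other, and some libraries held few chondrocyte-lineage cells, so that this check cannot decide. A replicate block, chosen after seeing the data to use all libraries but the Tom-GFP+ steady state, called 0 genes for Tom+ injury and 5 for injured Tom+ against Tom-GFP+ cells, beside 0 and 6 without the block. The 5 were Prg4, tdTom, Slpi, Abi3bp and Rcan1, and the 6 were Prg4, tdTom, Slpi, Cilp, Meltf and Mmp13, so that Cilp lost its call with the block. With the block, Tom+ injury gave 1.39 for Col2a1, 0.81 for Acan, 0.10 for Sox9, -0.044 for Prg4 and -1.22 for Cilp, and without it 0.75, 0.55 and -0.73 for Col2a1, Acan and Cilp.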
